A study of Mus musculus with 11 samples.

Results

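Organoids grown from the ovarian surface epithelium (OSE), the single cell layer that covers the ovary, were compared with OSE tissue of wild-type C57BL/6 mice. The members are 5 of the 27 libraries of the series, chosen by their labels: 3 independent OSE tissue samples and 2 independent OSE organoid lines, with all 18305 genes of the count table. The question is which genes of the tissue the culture kept, lost or gained. Both lines are wild type and were reported separately wherever they disagreed. Each line was derived from the pooled ovaries of several mice by a pronase digestion meant to release surface cells, and was grown in basement membrane extract with WNT3A-conditioned medium, R-spondin, Noggin, EGF, β-estradiol and A83-01, an inhibitor of TGF-β receptor signaling. Tissue RNA was extracted with Trizol and organoid RNA with a column kit, so that the extraction method and the culture cannot be told apart. A further OSE organoid line was left out by the authors because of evident contamination and was not analysed here. Oviduct tissue (3 samples) and oviductal organoids (3 lines), also wild type, served only to test whether a difference was larger in OSE than in oviduct.

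The OSE is a mesothelium-derived epithelium that combines epithelial keratins with mesothelial and stromal genes, such as those of WT1, mesothelin and vimentin, and it repairs the ovulation wound. Below it lie follicles, with oocytes and hormone-producing granulosa and theca cells, and a collagen-rich stroma. Epithelia of the Müllerian duct, which forms oviduct and uterus, are instead marked by PAX8, SOX17 and, in uterine glands, FOXA2. In bulk RNA, fewer cells of a type and less RNA of a gene per cell cannot be told apart.

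RNA was read by CEL-Seq2, which tags transcripts near their 3′ end. The tissue samples held 739248 to 1704646 counts, and lines 1 and 2 held 1571761 and 2165162. Levels are given as CPM, read counts scaled to a common library size with TMM factors, in the order tissue sample 1, 2, 3 and line 1, 2, and 3 counts correspond to 1.60 to 3.67 CPM. They are compared between samples and not between genes of different length. Mitochondrial ribosomal RNA (*mt-Rnr1* and *mt-Rnr2*) took 1.76 to 2.97% of the counts in tissue, 12% in line 1 and 15% in line 2. With library totals in place of TMM, the median log2 fold change over all genes moved from -0.06 to -0.50, and the share of calls that were higher fell from 43.8% to 25.2%.

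The markers of the label were checked first. *Wt1*, the transcription factor of the mesothelial layer, had 267, 269 and 249 CPM in tissue, 223 in line 1 and 145 in line 2 and was not called (log2 fold change -0.51). *Msln*, which encodes mesothelin, had 271, 169 and 143 CPM in tissue, 2080.5 in line 1 and 436 in line 2 and rose (log2 fold change 2.69, SE 0.63, adjusted p = 0.0171). The cytokeratin gene *Krt8* (GRCm38, chromosome 15, 101996698 to 102004482, GENCODE vM21) had 191, 229 and 161 CPM in tissue, 1852 in line 1 and 2001 in line 2 and rose (log2 fold change 3.32, SE 0.27, adjusted p = 0.000502). Epithelial keratin and both mesothelial markers were thus detected in each line. The tissue libraries carried RNA of deeper ovarian cells as well: the oocyte gene *Bmp15* had 205, 209 and 223 CPM, the theca enzyme gene *Cyp17a1* 187, 172 and 212 CPM and the granulosa enzyme gene *Cyp19a1* 78.1, 115 and 92.2 CPM, and none of these had a count in either line. *Upk3b*, a defining mesothelial gene, had 7.02, 4.89 and 1.07 CPM in tissue and no count in either line.

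Of 10232 genes tested, 1485 were higher in OSE organoids and 1902 were lower (edgeR's quasi-likelihood test, adjusted p under 0.05, n = 2 lines and 3 tissue samples), which is 14.5% and 18.6% of the genes tested. In each of the 1902 lower genes, and in 1472 of the 1485 higher ones, the 2 lines lay outside the range of the 3 tissue samples. The share of such genes among all genes tested was not counted. Uncalled genes such as *Gata4* lay outside it as well, so this count is only a description of the calls. No count was seen in either line for 530 of the lower genes. The counts of calls depended on single libraries: without tissue sample 1, 2 or 3, 764, 764 and 689 genes were higher and 1171, 1199 and 1079 lower. Fits without line 1 or line 2 hold a single line, so that their spread comes from the tissue samples alone. More genes were called in them, and their counts are not comparable with the others. This holds for every count given below without line 1 or line 2 in the comparison with OSE tissue.

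The largest increases were in *Sftpd*, *Ltf*, *Cxcl17*, *Hgfac*, *Foxa2*, *Cldn2*, *AA467197*, *Psca*, *Lcn2* and *Tmprss2*. *Sftpd* (chromosome 14, 41172214 to 41185149), which encodes the lung and mucosal collectin surfactant protein D, had no count in tissue, 1202 CPM in line 1 and 1043 in line 2, and was at least 426-fold higher (adjusted p = 0.000376), a limit taken against 3 counts per library. Such limits and the counting intervals below cover counting error only, since reads were counted without molecular identifiers. *Ltf* (chromosome 9, 111019271 to 111042767), the iron-binding protein lactoferrin, had 1.76, 1.22 and 0 CPM in tissue, 7236 in line 1 and 1975 in line 2, a ratio of 5269-fold (95% counting interval 1803 to 25553) on only 3 tissue counts (adjusted p = 0.000502). *Lcn2*, which encodes the siderophore-binding lipocalin 2, had 4.39, 1.22 and 1.6 CPM in tissue, 144 in line 1 and 5892 in line 2 (log2 fold change 10.25, SE 1.65, adjusted p = 0.00456). *Foxa2*, a transcription factor of endoderm and of uterine glands, had no tissue count and 443 CPM in line 1 and 57.2 in line 2, at least 95.1-fold higher (adjusted p = 0.00817). Both lines lay above all tissue samples in these 4 genes, which the rule that named them required. The lines themselves differed by several-fold in *Ltf*, *Lcn2* and *Foxa2*.

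The chemokine gene *Cxcl17* (at least 132-fold, adjusted p = 0.0029) and the claudin gene *Cldn2* (at least 56.2-fold, adjusted p = 0.000925) also had no tissue count. *Tmprss2*, a membrane serine protease, had 0, 1.22 and 0.533 CPM in tissue, 935 in line 1 and 426 in line 2 (adjusted p = 0.000351). *Hgfac*, the activator of hepatocyte growth factor, had 160.3 CPM in line 1 and 2084 in line 2, against 1 count in all tissue samples (adjusted p = 0.00213). *AA467197* had 1149.7 and 16.7 CPM in lines 1 and 2 and 1 tissue count, and *Psca*, a surface antigen of prostate and other epithelia, had 244 and 18.9 CPM and no tissue count. Their calls (adjusted p = 0.00918 for *AA467197* and adjusted p = 0.0177 for *Psca*) were lost without any 1 of the tissue samples, where the adjusted p reached 0.0923 and 0.0661.

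The largest decreases were in genes without a count in either line. *Hsd3b1* (chromosome 3, 98852194 to 98859794), a steroid dehydrogenase gene, had 5098, 6338 and 5866 CPM in tissue and was at least 2908-fold lower (adjusted p = 0.000328). It belongs to a family of near-identical copies, so that its reads could be split among them. *Serpine2* (chromosome 1, 79794197 to 79861180), a protease inhibitor of granulosa cells, had 1558, 1318 and 1223 CPM in tissue and was at least 689-fold lower (adjusted p = 0.000328). *Uchl1*, a ubiquitin hydrolase of neurons and oocytes, had 896, 716 and 813 CPM (at least 408-fold, adjusted p = 0.000328). Stromal and contractile genes followed: *Mgp*, matrix Gla protein, had 748, 505 and 453 CPM (at least 287-fold), *Col1a2*, a chain of type I collagen, 831, 405 and 418 CPM (at least 278-fold), and *Acta2*, smooth muscle actin, 557, 394 and 399.7 CPM (at least 227-fold). *Nap1l5*, *Gm15698*, *Lect1* and *C86187* completed the 10, at least 338-, 259-, 187- and 186-fold lower. Adjusted p-values of these 7 genes lay between 0.000328 and 0.000635.

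**Figure D1:**
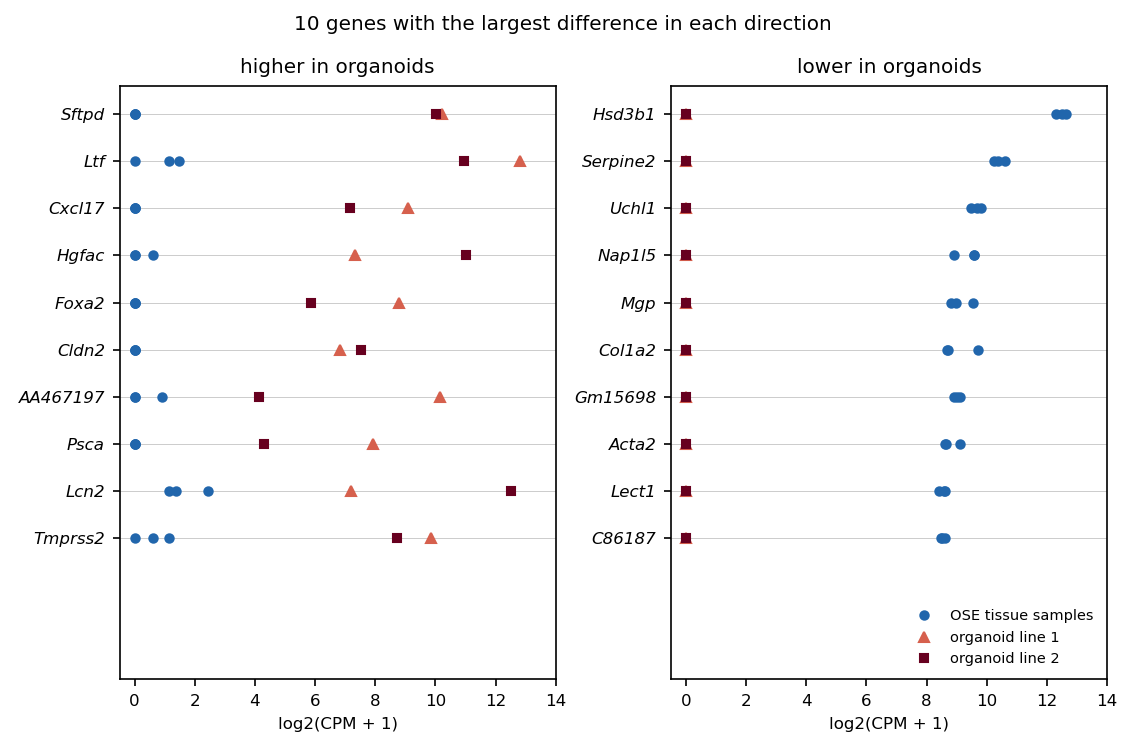
Level of the 10 genes with the largest increase (left) and decrease (right) in OSE organoids, as log2(CPM + 1) on the horizontal axis, with circles for the 3 tissue samples, triangles for line 1 and squares for line 2. The 10 decreased genes sit at 0 in both lines, while *AA467197* and *Psca* lie far apart between the lines.

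Genes of the cells below the surface layer were lower in the organoids, and those of the oocyte were almost absent. A list member without counts in 1 group could be tested only through the other group, so the counts of called members are descriptions. Of 20 oocyte genes listed, 17 were tested and all 17 were lower, with *Bmp15*, an oocyte growth factor, at least 107-fold lower (adjusted p = 0.000351), *Nlrp14* at least 100.4-fold (adjusted p = 0.000351) and the zona pellucida gene *Zp3* at least 67.3-fold (adjusted p = 0.00116). The summed level of the oocyte list was 1237 to 1581 CPM in tissue, 0 in line 1 and 6.48 in line 2. Among 14 steroidogenic genes tested, 13 were lower. *Cyp17a1*, which makes androgen precursors, had 187, 172 and 212 CPM in tissue (at least 96-fold lower, adjusted p = 0.000351), and the prolactin receptor gene *Prlr* 84.3, 122 and 107 CPM (at least 52.6-fold, adjusted p = 0.000502). *Ptgfr*, the prostaglandin F receptor, had 7.9, 6.11 and 14.4 CPM in tissue, 3.13 in line 1 and 0 in line 2 and was not called. The summed level of this list was 9705 to 11319.9 CPM in tissue, 97 in line 1 and 157 in line 2.

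Of 16 granulosa genes tested, 13 were lower, among them *Cyp19a1*, aromatase (at least 47.9-fold, adjusted p = 0.000502), and *Fshr*, the FSH receptor (at least 24.7-fold, adjusted p = 0.000669). *Kitl*, the KIT ligand, was the member called higher, with 29.9, 33 and 30.4 CPM in tissue, 234 in line 1 and 50.2 in line 2 (log2 fold change 2.18, SE 0.58, adjusted p = 0.0278). Its call was lost with library totals and without any 1 tissue sample (adjusted p up to 0.119). *Nr4a1*, an orphan nuclear receptor that is also an immediate early gene, had 291, 407 and 615 CPM in tissue, 58.7 in line 1 and 196 in line 2 and was not called (adjusted p = 0.0513). The medians over the tested members were -9.36 for the oocyte, -6.40 for the steroidogenic and -7.03 for the granulosa list, against -0.06 over all genes. With genes at 0 in 1 group set to their limit the medians were -5.03, -5.54 and -5.11.

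Genes of stroma, vessels and blood cells were mostly lower as well. In the fibroblast list 24 of 27 tested genes were lower (median -6.44, or -5.50 at the limits), and *Col1a1*, the other chain of type I collagen, had 366, 198 and 145 CPM in tissue and no count in the lines (at least 119-fold, adjusted p = 0.00108). *Gsn*, the actin-severing protein gelsolin, was higher, with 58.8, 64.8 and 58.1 CPM in tissue, 403 in line 1 and 92.9 in line 2 (log2 fold change 2.03, SE 0.55, adjusted p = 0.0289). This call was lost with library totals and without any 1 tissue sample (adjusted p up to 0.122). *Fn1*, fibronectin, had 49.2, 36.7 and 23.4 CPM in tissue, 40.7 in line 1 and 247 in line 2 (adjusted p = 0.0652), so that line 1 lay within the tissue range and line 2 above it. Of 13 smooth muscle genes 9 were lower, such as *Myh11*, smooth muscle myosin (at least 32.5-fold, adjusted p = 0.000984), and the prostacyclin synthase gene *Ptgis* (at least 15.5-fold, adjusted p = 0.00168). Tropomyosin 1, *Tpm1*, had 205, 197 and 145 CPM in tissue, 91.5 in line 1 and 547 in line 2 and was not called (adjusted p = 0.367).

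In the endothelial list 8 of 12 tested genes were lower (5 without tissue sample 3), including *Pecam1* (at least 15.8-fold, adjusted p = 0.00184), *Cdh5* (at least 11.2-fold, adjusted p = 0.00218) and the VEGF receptor gene *Kdr* (at least 6.92-fold, adjusted p = 0.00284). The endothelial adhesion gene *Esam* had 24.6, 44 and 29.8 CPM in tissue, 49.3 in line 1 and 7.02 in line 2 and was not called. Myeloid genes were lower in 10 of 14, with the MHC class II gene *H2-Aa* at 156, 79.5 and 76.2 CPM in tissue and no count in the lines (at least 52.4-fold, adjusted p = 0.00119) and the complement gene *C1qc* at least 25.6-fold lower (adjusted p = 0.00251). *H2-Ab1* kept 33.6 and 1.62 CPM in lines 1 and 2, against 105, 44 and 46.4 CPM in tissue, and was not called (adjusted p = 0.17). *H2-Eb1* had 212, 91.7 and 94.9 CPM in tissue, 0 in line 1 and 0.54 in line 2 (adjusted p = 0.000986). *Cd14*, the lipopolysaccharide co-receptor, went the other way with 8.78, 3.67 and 4.8 CPM in tissue, 83.7 in line 1 and 299 in line 2 (log2 fold change 5.03, SE 0.63, adjusted p = 0.00203). The single tested lymphoid gene *Lck* (at least 5.09-fold, adjusted p = 0.00486) and the single tested erythroid gene *Alas2* (at least 3.85-fold, adjusted p = 0.017) were lower. *Alas2* could not be tested without tissue sample 1 or 3, when too few counts remained.

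**Figure D2:**
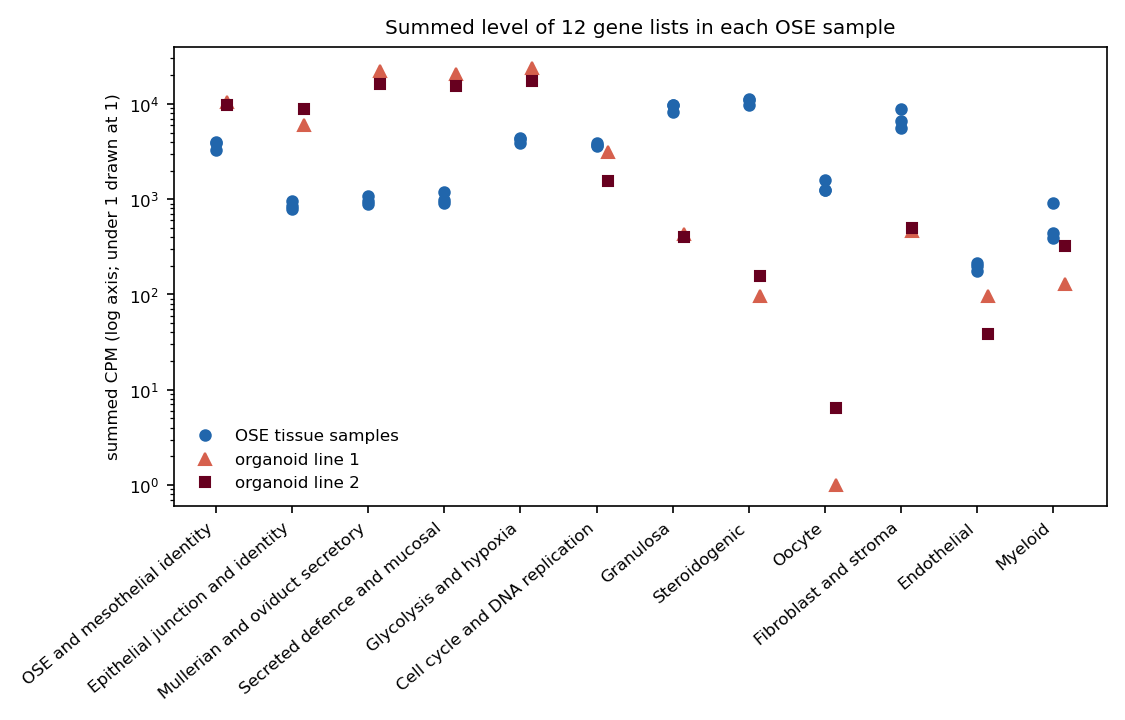
Summed CPM of the members of 12 gene lists (log axis, sums under 1 drawn at 1) in the 3 OSE tissue samples (circles), line 1 (triangles) and line 2 (squares). Oocyte, steroidogenic and granulosa sums are lower in both lines than in every tissue sample, and epithelial, Müllerian, defence and glycolysis sums are higher.

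Within the list of OSE and mesothelial genes the keratins *Krt7*, *Krt8*, *Krt18* and *Krt19* rose while most of the other members fell. Of 27 tested members 6 were higher and 14 lower (median -2.03). *Krt7* had 161, 99 and 77.8 CPM in tissue, 3099.6 in line 1 and 3830.1 in line 2 (log2 fold change 4.95, SE 0.39, adjusted p = 0.000502). *Krt18* had 63.2, 86.8 and 65.5 CPM in tissue, 1807 in line 1 and 2020.0 in line 2 (log2 fold change 4.74, SE 0.28, adjusted p = 0.000351). *Nr2f1*, the nuclear receptor COUP-TFI, had 7.02, 0 and 0 CPM in tissue, 26.6 in line 1 and 443 in line 2 (log2 fold change 6.70, SE 1.49, adjusted p = 0.0143), a call lost by DESeq2 and without any 1 tissue sample (adjusted p up to 0.0788). The growth factor binding protein gene *Igfbp6* had 79, 74.6 and 59.2 CPM in tissue, 0 in line 1 and 0.54 in line 2 (adjusted p = 0.000502). *Tcf21* (at least 5.95-fold, adjusted p = 0.00758) and *Bnc1*, basonuclin 1 (at least 6.02-fold, adjusted p = 0.00518), had no count in the lines. *Gata4*, a gonadal transcription factor, had 319.6, 406 and 321 CPM in tissue, 114 in line 1 and 8.64 in line 2, below all tissue samples in both lines but not called (adjusted p = 0.0716).

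Several further members of this list were picked here after their values were seen. The tissue libraries also hold deeper ovarian cells, and which cells gave the tissue levels of these genes was not tested. *Upk1b*, a uroplakin of mesothelium, had 113, 91.7 and 84.7 CPM in tissue, 0 in line 1 and 4.32 in line 2 (log2 fold change -5.25, SE 0.72, adjusted p = 0.00268). The R-spondin gene *Rspo1* had 72, 51.3 and 59.2 CPM in tissue, 0 in line 1 and 1.08 in line 2 (log2 fold change -6.41, SE 0.62, adjusted p = 0.000848). The LIM homeobox gene *Lhx9* had 21.1, 29.3 and 20.3 CPM in tissue, 0 in line 1 and 2.7 in line 2 (log2 fold change -3.85, SE 0.77, adjusted p = 0.00958). *Aldh1a1*, a retinaldehyde dehydrogenase, had 824, 903 and 799 CPM in tissue, 217 in line 1 and 34 in line 2 (log2 fold change -2.75, SE 0.73, adjusted p = 0.0271). All 4 were lower in both lines, which is only a description because of how they were picked, and *Aldh1a1* remained detectable in each. *Lgr5*, the R-spondin receptor that marks OSE stem cells, had 32.5, 34.2 and 32 CPM in tissue, 43.8 in line 1 and 0 in line 2, so that line 1 exceeded the tissue samples and line 2 had no count (adjusted p = 0.708 with both lines).

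Factors of epithelial-mesenchymal transition were lower in 6 of 9 tested genes and higher in none. *Cdh2*, N-cadherin, *Vim*, vimentin, and *Zeb2* were the other 3 beside those given here. *Zeb1*, a repressor of epithelial genes, had 48.3, 39.1 and 50.1 CPM in tissue, 0.782 in line 1 and 0.54 in line 2 (adjusted p = 0.000502), and *Snai2* (at least 7.09-fold, adjusted p = 0.00439) and *Prrx1* (at least 2.96-fold, adjusted p = 0.0106) had no count in the lines. Without line 1, 2 members were higher. The summed level of the list, which holds *Fn1*, was 326 to 378 CPM in tissue, 48.5 in line 1 and 388 in line 2. Of 9 tested Hox genes, which set position along the body axis, 4 were lower: *Hoxd9* (at least 10.3-fold, adjusted p = 0.00317), *Hoxd10* (at least 4.75-fold, adjusted p = 0.0136) and *Hoxc10* (at least 3.6-fold, adjusted p = 0.00815) had no count in the lines, and *Hoxc5* was the other. The number lower was 1 without tissue sample 1 or 2 and 7 without line 1, and 6 members were higher without line 1. *Hoxc8* had 124, 160.1 and 97.5 CPM in tissue, 349 in line 1 and 5.94 in line 2, higher than all tissue samples in line 1 and lower than all of them in line 2.

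Genes of epithelial junctions rose in both lines. Of 39 tested members 36 were higher and none was lower (median 3.83), against 14.5% and 18.6% of all genes. *Rab25*, a GTPase of epithelial membrane recycling, had 0.878, 0 and 1.6 CPM in tissue, 278 in line 1 and 270.5 in line 2 (adjusted p = 0.000328). The integrin gene *Itgb6* (at least 13.4-fold, adjusted p = 0.00386) and *Ovol2*, a repressor of mesenchymal genes (at least 6.28-fold, adjusted p = 0.00692), had no tissue count. *Itga3*, the laminin receptor subunit, had 194, 202 and 189 CPM in tissue, 236 in line 1 and 1026 in line 2 and was not called (adjusted p = 0.0504). The classical members, named here after their values were seen, rose in both lines: *Cdh1*, E-cadherin, had 29, 37.9 and 37.8 CPM in tissue, 1050.4 in line 1 and 1115 in line 2 (log2 fold change 4.95, SE 0.27, adjusted p = 0.000328). The claudin gene *Cldn4* had 3.51, 3.67 and 1.6 CPM in tissue, 240.1 in line 1 and 692 in line 2 (log2 fold change 7.39, SE 0.61, adjusted p = 0.000532). The summed level of the list was 781 to 953 CPM in tissue, 5962 in line 1 and 8798 in line 2.

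All 5 genes tested of 25 listed for stratified or squamous epithelium were higher. *Krt4*, a keratin of stratified mucosae (at least 16.9-fold, adjusted p = 0.00902), and *Ivl*, the cornified envelope protein involucrin (at least 6.51-fold, adjusted p = 0.00445), had no tissue count, and *Sprr1a* had 0.878, 0 and 1.07 CPM in tissue, 18 in line 1 and 259.7 in line 2 (adjusted p = 0.0069). These members passed the filter through the organoids, where they were high, and 13 of the 25 had no count in either line. Among basement membrane genes 6 of 18 were higher and 5 lower (*Lama1*, *Lama2*, *Lama4*, *Nid1* and *Col4a6*). The laminin chains changed in opposite directions. *Lama5* had 9.66, 9.78 and 13.3 CPM in tissue, 194 in line 1 and 168 in line 2 (log2 fold change 4.01, SE 0.27, adjusted p = 0.000351). In *Lama3* the levels were 6.15, 1.22 and 2.66 CPM in tissue, 8.6 in line 1 and 44.8 in line 2 (log2 fold change 2.97, SE 0.82, adjusted p = 0.032). *Lama1* (at least 178-fold, adjusted p = 0.000328), *Lama2* (at least 4.88-fold, adjusted p = 0.0046) and nidogen 1, *Nid1* (at least 18.6-fold, adjusted p = 0.00217), had no count in the lines. *Lama3* was not called with library totals or without tissue sample 1 or 2 (adjusted p up to 0.122). The number higher was 3 without tissue sample 1 or 2 and 2 without tissue sample 3, and the number lower 3 without tissue sample 2 and 8 without either line. The type IV collagen chain *Col4a2* had 529, 425 and 318 CPM in tissue, 289 in line 1 and 13.5 in line 2 and was not called (adjusted p = 0.298).

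Most genes listed for Müllerian and oviductal secretory cells also rose. Of 18 tested, 15 were higher and none was lower (median 5.97, or 5.63 at the limits). *Wfdc2*, a secreted protease inhibitor, had 6.15, 4.89 and 8.53 CPM in tissue, 2835 in line 1 and 4454 in line 2 (log2 fold change 9.06, SE 0.42, adjusted p = 0.000328). *Pax8* had 0.878, 3.67 and 2.13 CPM in tissue, 44.6 in line 1 and 192 in line 2 (log2 fold change 5.76, SE 0.78, adjusted p = 0.00255). *Sox17*, picked after its values were seen, had 10.5, 12.2 and 10.1 CPM in tissue, 734 in line 1 and 256 in line 2 (log2 fold change 5.50, SE 0.50, adjusted p = 0.000708). *Ovgp1*, the oviductal glycoprotein, was not called with both lines (adjusted p = 0.0684): it had 123, 86.8 and 66.1 CPM in tissue, 19.6 in line 1 and 3455 in line 2, below the tissue in line 1 and above it in line 2. In the oviduct groups *Wfdc2* had 418, 319.9 and 336 CPM in oviduct tissue and 1539, 2891 and 2801 in organoids of the oviduct. *Ovgp1* had 102560.0, 109297 and 69765 CPM in oviduct tissue and 21279, 19287 and 14139 in organoids of the oviduct. The part that cells of another origin in a line may have had in these levels was not tested.

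Ciliated cell genes were scarcely detected. In all, 4 of 19 listed genes in the table passed the filter. *Tubb4b*, a tubulin that is not limited to cilia, was higher with 67.6, 48.9 and 68.2 CPM in tissue, 253 in line 1 and 124 in line 2 (log2 fold change 1.60, SE 0.35, adjusted p = 0.0131), and this call was lost without any 1 tissue sample (adjusted p up to 0.0707). *Tppp3* had 75.5, 53.8 and 88.5 CPM in tissue, 1.56 in line 1 and 0.54 in line 2 (adjusted p = 0.000629). The multiciliation gene *Ccno* had 31.6, 23.2 and 20.3 CPM in tissue, 2.35 in line 1 and 0 in line 2 (adjusted p = 0.00769), and both were lower. *Rfx3* was not called, with 8.78, 6.11 and 8.53 CPM in tissue, 7.82 in line 1 and 13.5 in line 2. *Foxj1*, the master regulator of motile cilia, was not tested, with 0, 0 and 1.07 CPM in tissue, 0.782 in line 1 and 5.94 in line 2.

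Of 14 tested secreted defence genes 9 were higher and 2 lower (median 3.23), and 5 were higher without tissue sample 1 or 3, while 4 were lower without line 2. The sum was 906 to 1187 CPM in tissue, 20724 in line 1 and 15261 in line 2, with *Ltf*, *Sftpd*, *Lcn2* and *Wfdc2* at the levels given above. *Lyz1*, a lysozyme gene whose reads may be shared with its copy, was at least 17.3-fold lower (adjusted p = 0.00744). The chemokine gene *Cxcl2* was lower too, with 44.8, 25.7 and 26.6 CPM in tissue, 0 in line 1 and 2.7 in line 2 (log2 fold change -4.31, SE 0.78, adjusted p = 0.00675). Complement *C3* had 159.8, 85.6 and 140.2 CPM in tissue, 7.04 in line 1 and 579 in line 2 and was not called (adjusted p = 0.483). Line 1 lay below all tissue samples and line 2 above them.

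The interferon and MHC class I list was mixed, with 4 of 18 higher (*Mx1*, *Ifitm3*, *Bst2* and *H2-K1*) and 3 lower, near the shares of all genes. *Mx1* (at least 3.78-fold, adjusted p = 0.00743) and *Ifitm3* (124, 79.5 and 72.5 CPM in tissue, 766 in line 1 and 220.2 in line 2; log2 fold change 2.42, SE 0.52, adjusted p = 0.0131) were higher. *Bst2*, tetherin, was higher with 29, 28.1 and 36.2 CPM in tissue, 47.7 in line 1 and 265 in line 2 (log2 fold change 2.32, SE 0.63, adjusted p = 0.03). The immunoproteasome gene *Psmb8* (log2 fold change -2.12, SE 0.50, adjusted p = 0.0174), *Ifit1* (log2 fold change -2.10, SE 0.39, adjusted p = 0.00725) and *B2m*, the light chain of MHC class I (log2 fold change -0.85, SE 0.25, adjusted p = 0.0406), were lower. *Tapbp*, tapasin, was not called (adjusted p = 0.653). The call of *Ifitm3* was lost without tissue sample 2 or 3 (adjusted p up to 0.0774) and that of *Psmb8* without tissue sample 1 (0.0572). The call of *B2m* was lost without any 1 tissue sample (up to 0.143) or without the filter on low counts, and that of *Bst2* without any 1 tissue sample or line 2 (up to 0.129) and with library totals. Without tissue sample 1, 2 or 3 the number higher was 2, 1 and 1. The number lower was 1 without tissue sample 1, 8 without line 1 and 5 without line 2.

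Glycolysis and hypoxia genes rose together. All 24 tested members were higher (median 2.28), and the number was 16 to 19 without 1 of the tissue samples and 23 without either line. *Egln3*, an oxygen-sensing prolyl hydroxylase that is itself induced by hypoxia, had 1.76, 8.56 and 5.86 CPM in tissue, 1131 in line 1 and 279 in line 2 (log2 fold change 7.04, SE 0.78, adjusted p = 0.00126). *Ero1l*, an oxidase of protein folding, had 21.1, 57.4 and 33 CPM in tissue, 1052 in line 1 and 797 in line 2 (log2 fold change 4.65, SE 0.44, adjusted p = 0.000788). *Adm*, the vasodilator peptide adrenomedullin, had 2.63, 6.11 and 5.86 CPM in tissue, 58.7 in line 1 and 86.4 in line 2 (log2 fold change 3.87, SE 0.40, adjusted p = 0.00111). *Pgk1*, a glycolytic kinase, had 441, 497 and 409 CPM in tissue, 5722 in line 1 and 3011 in line 2 (log2 fold change 3.28, SE 0.34, adjusted p = 0.00113). *Car9*, a carbonic anhydrase induced by hypoxia, had 7.9, 11 and 2.13 CPM in tissue, 163 in line 1 and 11.9 in line 2 (log2 fold change 3.76, SE 1.10, adjusted p = 0.0379). It was high in line 1 and just above the tissue samples in line 2. The summed level was 3906 to 4345 CPM in tissue, 23908 in line 1 and 17395 in line 2. *Gapdh* is among the 24 although its many processed copies in the genome leave few uniquely placed reads (20.2, 29.3 and 25.6 CPM in tissue, 82.9 in line 1 and 57.2 in line 2), and its value is uncertain. In oviductal organoids 20 of 25 members tested in the fit of 11 libraries were higher than in oviduct tissue, against 14.2% of all genes. The interaction with OSE was called higher for 3 and lower for 1 of the 25, against 6.68% and 5.0% of all genes.

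Because these genes moved together, their promoters were searched for ACGTG, the core of the hypoxia response element, on both strands. The motif and list were chosen after the values were seen. Of 23 members with a RefSeq promoter entry (GRCm38.p6), 13 held the letters in the 250 bases before the start in any of their entries. Of all 32851 single entries 16.6% held them. The first is a share of genes and the second of entries, so the shares are not strictly comparable. Genes with several entries had more chances to match, also for the motifs below. The 3 of these with the largest increase are shown 5′ to 3′ on the strand of the gene, with ACGTG or its reverse complement in capitals: *Egln3* (chr12:54203875-54204124, minus strand), *Car9* (chr4:43506776-43507025, plus strand) and *Pgk1* (chrX:106186850-106187099, plus strand).
*Egln3*: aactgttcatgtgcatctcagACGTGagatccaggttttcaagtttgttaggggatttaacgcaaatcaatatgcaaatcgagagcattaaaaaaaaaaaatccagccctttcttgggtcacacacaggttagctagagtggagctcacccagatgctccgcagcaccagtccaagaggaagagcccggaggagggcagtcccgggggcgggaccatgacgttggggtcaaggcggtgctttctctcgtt
*Car9*: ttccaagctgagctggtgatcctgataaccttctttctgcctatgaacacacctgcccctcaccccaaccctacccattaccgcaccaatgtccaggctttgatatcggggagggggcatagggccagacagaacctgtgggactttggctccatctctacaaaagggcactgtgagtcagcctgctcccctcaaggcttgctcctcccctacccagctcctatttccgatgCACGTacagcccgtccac
*Pgk1*: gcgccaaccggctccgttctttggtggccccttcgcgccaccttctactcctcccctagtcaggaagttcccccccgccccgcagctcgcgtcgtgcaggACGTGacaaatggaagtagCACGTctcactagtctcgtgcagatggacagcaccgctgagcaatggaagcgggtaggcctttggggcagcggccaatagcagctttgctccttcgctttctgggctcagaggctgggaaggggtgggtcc
In *Egln3* the motif began 229 bases before the start, in *Car9* 18 bases, and in *Pgk1* it occurred at 150 and 131 bases. A match of these letters is a description and not a known site. AAGGTCA, the half-site of steroidogenic factors, was in none of the 10 steroidogenic genes with an entry, against 4.08% of all entries. At that share, no match among 10 genes is not unusual. *Star*, *Cyp17a1*, *Nr5a1* and *Scarb1* had no entry and were not searched. The CArG box of serum response factor, in either orientation, was in 2 of 23 immediate early genes, *Egr2* and *Zfp36*, against 1.47% of all entries. Neither gene was called. *Egr1*, *Egr3*, *Ier2* and *Cyr61* had no entry and were not searched.

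Genes of glutathione metabolism and the NRF2 response were higher in 12 of 24 and lower in none (median 1.02), with 5 or 6 higher when a tissue sample was left out and 4 lower without line 2. *Gsto1*, an omega-class glutathione transferase, had 29.9, 25.7 and 35.2 CPM in tissue, 1223 in line 1 and 567 in line 2 (log2 fold change 4.87, SE 0.40, adjusted p = 0.00052). The aldehyde dehydrogenase gene *Aldh3a1* had 1.76, 1.22 and 2.13 CPM in tissue, 23.5 in line 1 and 39.9 in line 2 (log2 fold change 4.08, SE 0.48, adjusted p = 0.00164). *Cbr3*, carbonyl reductase 3, had 1.76, 4.89 and 6.93 CPM in tissue, 145 in line 1 and 11.9 in line 2 (log2 fold change 4.00, SE 1.04, adjusted p = 0.0249). It was not called without any 1 tissue sample or without line 1 (adjusted p up to 0.116). *Gstm2*, one of a family of near-identical copies, had 1476, 1447 and 1209 CPM in tissue, 27.4 in line 1 and 2400.1 in line 2, so that the lines lay on either side of the tissue.

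Few cholesterol synthesis genes were called against OSE tissue, with 2 of 23 higher and 2 lower (median 0.16). The isomerase gene *Ebp* (log2 fold change 1.54, SE 0.34, adjusted p = 0.0136) was among the higher ones. *Hsd17b7* (log2 fold change -3.11, SE 0.32, adjusted p = 0.00106) and the sterol sensor gene *Insig1* (log2 fold change -1.13, SE 0.34, adjusted p = 0.0399) were lower. *Ebp* was not called without tissue sample 1 or 2 (adjusted p up to 0.0696) and *Insig1* by DESeq2 or without any 1 tissue sample (up to 0.147). Without line 2, 9 members were higher, and without line 1, 4 were lower. *Hmgcs1*, the first committed step, had 74.6, 95.3 and 106 CPM in tissue, 255 in line 1 and 77.7 in line 2 and was not called (adjusted p = 0.214).

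Cell cycle genes fell more often than they rose in the fit with all OSE libraries, and line 2 was the lower of the lines. Of 40 tested, 17 were lower and 3 higher (median -1.47), against 18.6% and 14.5% of all genes. The summed level was 3590 to 3882 CPM in tissue, 3128 in line 1 and 1540 in line 2. Without tissue sample 1, 2 or 3 the number lower was only 5, 5 and 4. Over all genes 1171 of 9928, 1199 of 9996 and 1079 of 9482 were lower in those fits. The list was then near the share of all genes. The checkpoint kinase gene *Bub1b* had 59.7, 40.3 and 50.1 CPM in tissue, 5.47 in line 1 and 2.7 in line 2 (log2 fold change -3.64, SE 0.43, adjusted p = 0.00166). The mitotic kinase gene *Plk1* had 85.2, 58.7 and 63.4 CPM in tissue, 11.7 in line 1 and 1.08 in line 2 (log2 fold change -3.53, SE 0.75, adjusted p = 0.0119), and the transcription factor gene *Mybl2* 21.9, 19.6 and 14.9 CPM in tissue, 5.47 in line 1 and 1.08 in line 2 (log2 fold change -2.58, SE 0.66, adjusted p = 0.0234). Both *Plk1* and *Mybl2* lost their call without any 1 tissue sample (adjusted p up to 0.0674 and 0.0941). *Top2a*, the topoisomerase of dividing cells, had 457, 490.1 and 439 CPM in tissue, 214 in line 1 and 43.7 in line 2 (adjusted p = 0.0571), and the proliferation marker *Mki67* 36.9, 23.2 and 36.8 CPM in tissue, 36.8 in line 1 and 6.48 in line 2 (adjusted p = 0.496), neither of them called. *Ccnd1*, *Cdkn2a* and *Cdkn1a* were the 3 higher genes. *Ccnd1*, cyclin D1, had 4.39, 4.89 and 6.4 CPM in tissue, 340.2 in line 1 and 211 in line 2 (log2 fold change 5.66, SE 0.34, adjusted p = 0.000351). The inhibitor gene *Cdkn2a* had 2.63, 1.22 and 1.07 CPM in tissue, 43.8 in line 1 and 26.5 in line 2 (log2 fold change 4.38, SE 0.52, adjusted p = 0.00168), and *Cdkn1a* 54.4, 90.5 and 103 CPM in tissue, 801 in line 1 and 379 in line 2 (log2 fold change 2.83, SE 0.41, adjusted p = 0.00321). *Cdkn2a* and *Cdkn1a* encode proteins that arrest the cycle, although the list is named for the cycle. Cycling granulosa cells are among the cell types that the tissue libraries hold, and their part in these levels was not tested.

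**Figure D3:**
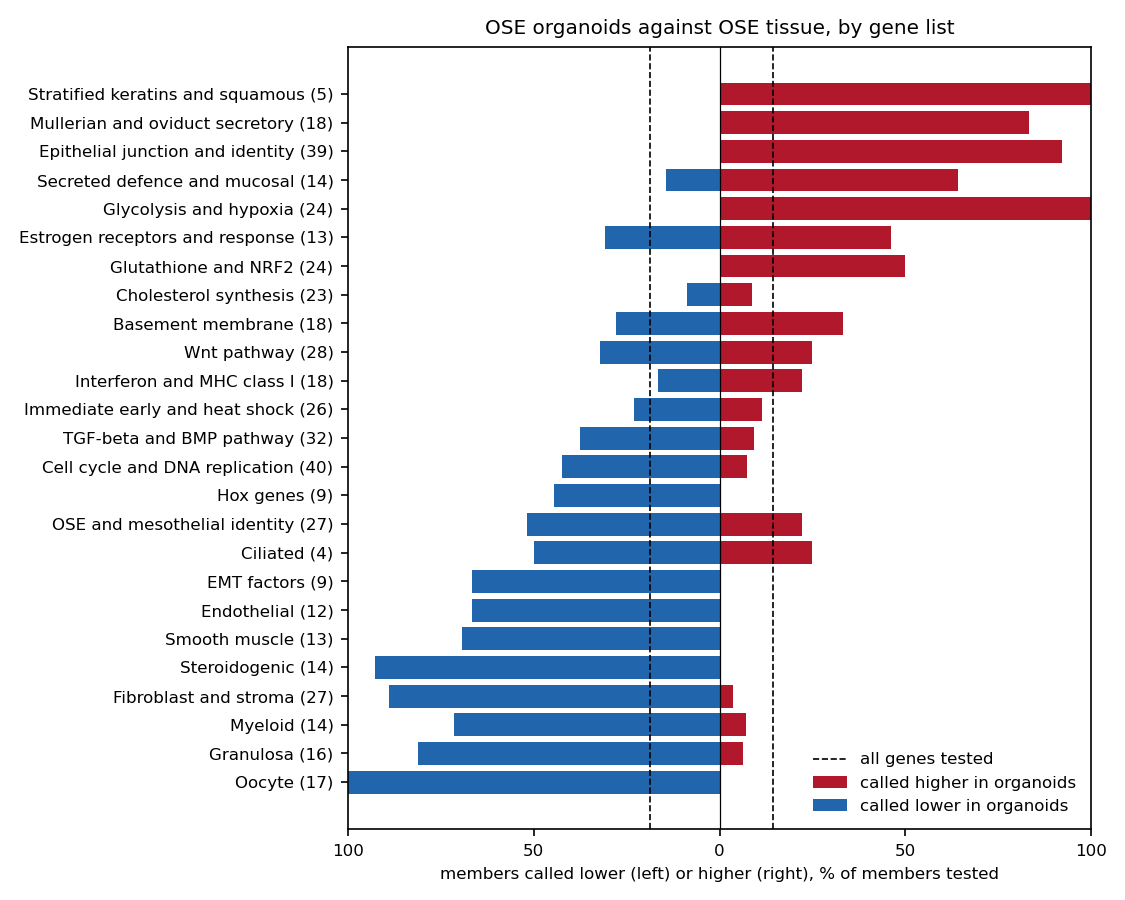
Share of tested members called higher (right) or lower (left) in OSE organoids for each list with at least 4 tested members (number in brackets), with dashed lines at 14.5% and 18.6%, the shares over all genes. Glycolysis and hypoxia and squamous genes reach 100% on the right and oocyte genes 100% on the left. Squamous members passed the filter through the organoids, and 14 of 17 tested oocyte members had no count in the lines. For these 2 lists the share is a description and not comparable with the dashed lines.

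Among the Wnt pathway genes, whose ligands and R-spondin were supplied in the medium, 7 of 28 tested were higher and 9 lower (median -0.13). The ligand gene *Wnt7b* had 2.63, 0 and 0 CPM in tissue, 43.8 in line 1 and 179 in line 2 (adjusted p = 0.00341). *Sp5*, a target of the pathway, had 1.76, 6.11 and 2.13 CPM in tissue, 39.9 in line 1 and 10.8 in line 2 (log2 fold change 3.01, SE 0.76, adjusted p = 0.0227). *Porcn*, which lipidates the ligands, had 7.02, 6.11 and 6.4 CPM in tissue, 87.6 in line 1 and 13.5 in line 2 (log2 fold change 2.92, SE 0.76, adjusted p = 0.0257). The secreted antagonist genes *Sfrp1* (at least 66.8-fold, adjusted p = 0.00137) and *Sfrp4* (at least 33.1-fold, adjusted p = 0.00131) and the agonist gene *Rspo2* (at least 10.4-fold, adjusted p = 0.00619) had no count in the lines. *Ctnnb1*, β-catenin, had 861, 845 and 806 CPM in tissue, 903 in line 1 and 1279 in line 2 and was not called (adjusted p = 0.294). Calls of *Sp5* (without tissue sample 1 or 3) and *Porcn* (without any 1 tissue sample or line 1) were lost, with adjusted p-values up to 0.114 and 0.112. Between 2 and 4 members were higher without 1 of the tissue samples.

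Of 13 estrogen receptor and response genes, in cells grown with β-estradiol, 6 were higher and 4 lower (median 2.03), with 2 lower without tissue sample 1 or 2. *Ltf*, *Lcn2* and *Muc1* had the largest increases of this list. *Muc1*, a mucin of gland surfaces, had 0.878, 0 and 0.533 CPM in tissue, 438 in line 1 and 15.7 in line 2 (adjusted p = 0.00876), not called without tissue sample 1 or 3 (adjusted p up to 0.0585). *Esr2*, the estrogen receptor of granulosa cells, had 66.7, 73.3 and 84.2 CPM in tissue and no count in the lines (at least 37.7-fold, adjusted p = 0.000502). *Igf1* had 154, 152 and 159 CPM in tissue, 0 in line 1 and 3.24 in line 2 (log2 fold change -6.32, SE 0.66, adjusted p = 0.00109). *Fgf18* had 15.8, 9.78 and 5.86 CPM in tissue, 1.56 in line 1 and 1.08 in line 2 (adjusted p = 0.0208), and was not called without tissue sample 1 or 2 (adjusted p up to 0.0583). The progesterone receptor gene *Pgr*, a target of estrogen picked after its values were seen, had 1.76, 11 and 2.66 CPM in tissue, 86.8 in line 1 and 1145 in line 2 (log2 fold change 7.07, SE 1.22, adjusted p = 0.00578). *Greb1*, another such target, had 1108, 1679 and 1218 CPM in tissue, 0 in line 1 and 387 in line 2 and was not called (adjusted p = 0.226), with no count in line 1. *Wnt4* was the remaining lower gene.

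In the TGF-β and BMP list, 3 of 32 tested genes were higher and 12 lower (median -0.82), and the culture held an inhibitor of the TGF-β receptor together with Noggin. *Id3*, a BMP target, had 215, 257 and 302 CPM in tissue, 0 in line 1 and 2.16 in line 2 (log2 fold change -7.60, SE 0.65, adjusted p = 0.000583). *Fst*, the activin antagonist follistatin, had 126, 246 and 218 CPM in tissue, 0 in line 1 and 0.54 in line 2 (adjusted p = 0.000493). The BMP antagonist gene *Grem1* had no count in the lines (at least 11.1-fold, adjusted p = 0.00585). Higher were *Ctgf* with 112, 89.2 and 104 CPM in tissue, 718 in line 1 and 3108 in line 2 (log2 fold change 4.23, SE 0.59, adjusted p = 0.00278) and *Tgfbr2*, the type II receptor, with 15.8, 15.9 and 10.1 CPM in tissue, 68.8 in line 1 and 75.6 in line 2 (log2 fold change 2.40, SE 0.31, adjusted p = 0.00214). *Cyr61* was higher with 176, 172 and 242 CPM in tissue, 652 in line 1 and 745 in line 2 (log2 fold change 1.83, SE 0.26, adjusted p = 0.0029). The signal transducer gene *Smad3* had 255, 368 and 217 CPM in tissue, 171 in line 1 and 493 in line 2 and was not called. Without line 1, 10 members were higher. Without line 2, 6 were higher and 22 lower.

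Of 26 immediate early and heat shock genes 3 were higher and 6 lower, near the 14.5% and 18.6% of all genes. The list's sum was 13217 to 27077 CPM in tissue, 12437 in line 1 and 12948 in line 2. *Fos* had 829, 1356 and 1996 CPM in tissue, 1764 in line 1 and 1243 in line 2 (adjusted p = 0.86), so that both lines lay within the tissue range. *Ier3* (216, 251 and 383 CPM in tissue, 691 in line 1 and 2516 in line 2; log2 fold change 2.50, SE 0.54, adjusted p = 0.0133) and *Maff* (log2 fold change 1.53, SE 0.24, adjusted p = 0.00437) were higher, as was *Cyr61*. *Nr4a2* (log2 fold change -2.40, SE 0.46, adjusted p = 0.00866), *Klf2* (log2 fold change -1.75, SE 0.40, adjusted p = 0.0158) and the chaperone gene *Dnajb1* (log2 fold change -1.66, SE 0.45, adjusted p = 0.0283) were lower. *Ier3* was not called without tissue sample 1 or 2 (adjusted p up to 0.0779) and *Dnajb1* without any 1 tissue sample (up to 0.0819). The number lower was 2 or 3 without 1 of the tissue samples and 11 without either line, and 5 members were higher without line 1.

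The lines differed from each other far more than the tissue samples did. Of 3775 genes with at least 50 CPM in a line, 398 differed over 4-fold on CPM plus 1, 175 being higher in line 1 and 223 in line 2. With all 11 wild-type libraries scaled together, 10.7% of such genes differed over 4-fold between the OSE lines, against 0.0314 to 0.157% between pairs of OSE tissue samples and 0.0624 to 0.717% between pairs of oviductal organoid lines. With 1 library per line there is no test of this difference, and the genes are named by its size.

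The 10 genes with the largest excess of line 1 over line 2 are given first. *Pigr*, the receptor that carries IgA across epithelia, had 1344 and 5.4 CPM in lines 1 and 2, and the antimicrobial lectin genes *Reg3g* and *Reg3b* had 667 and 1.62 CPM and 211 and 0.54 CPM in the same order. None of these 3 had a tissue count. *Ly6d* had 892 and 1.08 CPM, *2210407C18Rik* 296 and 0 CPM, *C4bp*, a complement regulator, 169 and 0 CPM, *Mgat4c* 430.2 and 1.62 CPM and *Ffar4*, a fatty acid receptor, 206 and 0.54 CPM, with at most 2.66 CPM in any tissue sample. *Sectm1b* had 13.2, 22 and 14.4 CPM in tissue, 400.5 in line 1 and 1.08 in line 2. The interferon-induced gene *Ifitm1* had 28.1, 22 and 24 CPM in tissue, 1464 in line 1 and 10.3 in line 2 and was called higher with both lines (log2 fold change 4.89, SE 1.49, adjusted p = 0.0438). That call was lost with library totals and without any 1 tissue sample (adjusted p up to 0.166), and without line 1 the log2 fold change was -1.25.

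Line 2 exceeded line 1 most in a further 10 genes. *Tmem213* had 0.782 and 754 CPM in lines 1 and 2, *Slc14a1*, a urea transporter, 4.69 and 1313 CPM and *Anxa13* 0 and 184 CPM, with at most 1 tissue count in all. *BC048546* had 4.39, 0 and 1.07 CPM in tissue, 16.4 in line 1 and 3887 in line 2 (log2 fold change 9.98, SE 2.16, adjusted p = 0.0132), not called without any 1 tissue sample (adjusted p up to 0.0834). The small heat shock genes *Cryab* and *Hspb1* had 12.5 and 3539.6 CPM and 8.6 and 1693 CPM in lines 1 and 2. In tissue *Cryab* had 50, 50.1 and 35.2 CPM and *Hspb1* 562, 664 and 746 CPM. *Cryab* was called higher with both lines (adjusted p = 0.0451), not called with library totals or without any 1 tissue sample (adjusted p up to 0.175), and its log2 fold change was -1.80 without line 2. *Gpx3*, the secreted glutathione peroxidase, had 680.4, 323 and 489.8 CPM in tissue, 5.47 in line 1 and 1706 in line 2. The insulin-like growth factor binding protein gene *Igfbp7* had 171, 187 and 199 CPM in tissue, 6.26 in line 1 and 1275 in line 2. *Ramp1*, a receptor-modifying protein, had 29, 14.7 and 12.3 CPM in tissue, 0 in line 1 and 219 in line 2, and *Greb1* the values given above. In *Hspb1*, *Gpx3*, *Igfbp7* and *Ramp1* line 1 lay below all tissue samples and line 2 above all of them.

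Each line was also set alone against the same 3 tissue samples, with the lone line assumed to vary like the tissue. Both comparisons use those controls, so their values are a description. With line 1 and line 2 alone the log2 fold changes were 7.74 and 5.73 for *Egln3* and -3.20 and -3.04 for *Hsd17b7*. Opposite signs were seen in genes such as *Ovgp1* (-2.20 and 5.26), among them the 14 reversed genes listed below.

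**Figure D4:**
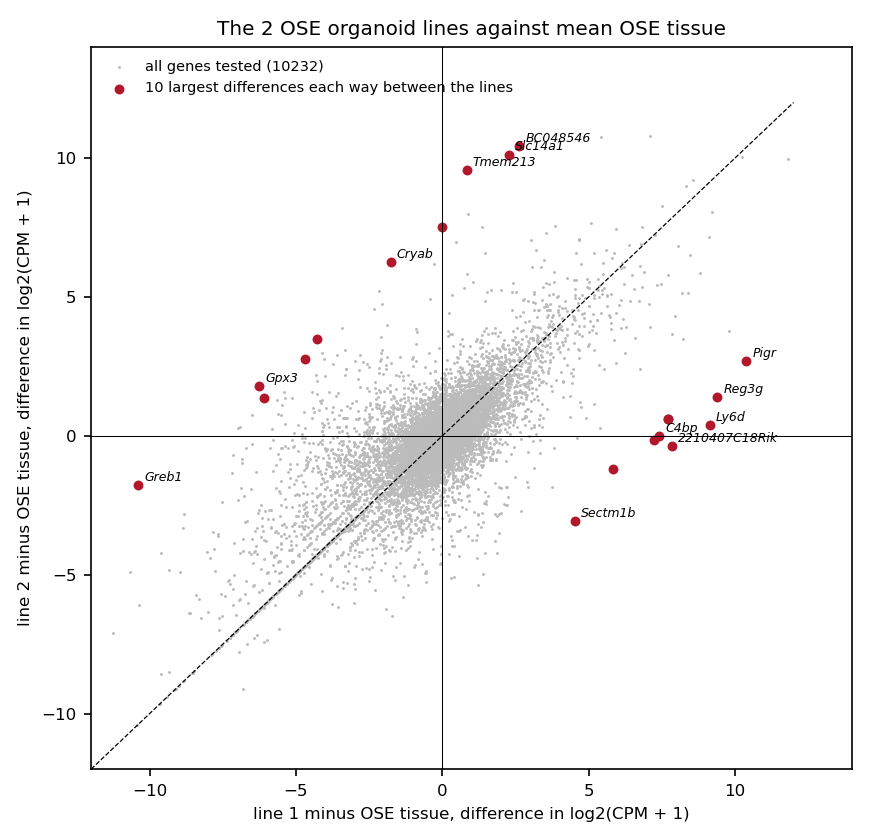
Difference of line 1 (horizontal) and of line 2 (vertical) from mean OSE tissue in log2(CPM + 1), 1 grey point per gene tested, with the 10 genes of largest difference between the lines in each direction in red, and equality dashed. The red points lie far from the dashed line, with *Pigr*, *Reg3g* and *Ly6d* to the right and *Tmem213*, *Slc14a1* and *BC048546* at the top.

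Whether a difference was larger in OSE than in oviduct was tested by the interaction of origin with culture over the 11 wild-type libraries. Of 11458 genes, 765 had a higher organoid minus tissue difference in OSE (6.68%) and 573 a lower one (5.0%). Without 1 library the counts lay between 489 and 1125 higher and between 336 and 1223 lower. The number higher was 489 without oviduct tissue sample 1, 493 without OSE tissue sample 3, 1125 without line 1 and 1099 without line 2. The number lower was 354, 370 and 336 without OSE tissue sample 1, 2 or 3, 348 without oviduct tissue sample 1, 915 without line 1 and 1223 without line 2. Where a group has no counts, the fitted interaction depends on the prior count and its size is no bound. *Sftpd* rose in both origins but more in OSE: it had 166, 139.8 and 51.6 CPM in oviduct tissue and 1056, 929 and 1197 in organoids of the oviduct (interaction log2 10.33, SE 0.98, adjusted p = 0.00016). *Foxa2* had 48.1, 81.9 and 26.9 CPM in oviduct tissue and 47.8, 29.5 and 17.1 in organoids of the oviduct (interaction log2 12.001, SE 1.76, adjusted p = 0.00214). *Ildr2* and *Hoxc8* were high in line 1, with 899 and 17.8 CPM and 349 and 5.94 CPM in lines 1 and 2. They had 287, 311 and 197 CPM in oviduct tissue and 234, 225 and 206 CPM in oviduct tissue, and no count in oviductal organoids (interaction log2 12.32, SE 2.21, adjusted p = 0.0061 for *Ildr2*, and interaction log2 11.72, SE 2.21, adjusted p = 0.0079 for *Hoxc8*). *Ly6d* (interaction log2 13.34, SE 2.89, adjusted p = 0.011) was not called without line 1 (adjusted p = 0.103) or without oviduct tissue sample 1. *Pigr* (interaction log2 13.59, SE 3.93, adjusted p = 0.0493) lost its call in 9 of 11 fits without 1 library (adjusted p up to 0.0991).

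Of the 6 genes named for a larger loss in OSE, *Inhbb* and *Serpine2* are granulosa genes. *Inhbb*, the inhibin and activin subunit of granulosa cells, had 1112, 1315 and 1579.6 CPM in tissue, 34.4 in line 1 and 76.1 in line 2. It rose in oviductal organoids, with 25.4, 46.6 and 35.2 CPM in oviduct tissue and 307, 525 and 437 in organoids of the oviduct (interaction log2 -8.24, SE 0.56, adjusted p = 9.34e-06). *Pak3*, a kinase that also rose in oviductal organoids, had 118, 138 and 114 CPM in tissue, 0 in line 1 and 1.08 in line 2. It had 16, 26.4 and 43.4 CPM in oviduct tissue and 117, 98.4 and 101 in organoids of the oviduct (interaction log2 -9.39, SE 0.69, adjusted p = 1.30e-05). *Serpine2* (interaction log2 -9.88, SE 0.75, adjusted p = 2.27e-05), *Gm15698* (interaction log2 -12.48, SE 0.88, adjusted p = 1.50e-05), *Lect1* (interaction log2 -9.81, SE 2.03, adjusted p = 0.0104) and *Lama1* (interaction log2 -7.15, SE 1.77, adjusted p = 0.024) had no count in the OSE lines. The call of *Lect1* was lost without oviductal organoid line 1 and that of *Lama1* without oviductal organoid line 3.

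The immediate early and the cholesterol list differed between the origins in the fit of 11 libraries. Of 26 immediate early and heat shock genes 20 had a lower difference in OSE (16 to 22 without 1 library), where 3 were higher and 9 lower against tissue, while in oviduct 18 were higher and 2 lower. Over all genes of this fit 17.2% were higher and 22.3% lower in OSE, and 14.2% and 20.8% in oviduct. *Fos* had 20, 46.6 and 60.9 CPM in oviduct tissue and 763, 688 and 673 in organoids of the oviduct (interaction log2 -4.06, SE 0.58, adjusted p = 0.00107), beside the OSE values given above. Of 23 cholesterol synthesis genes 13 had a lower difference in OSE (9 to 15 without 1 library), with 2 higher in OSE and 17 higher in oviduct. *Hmgcs1* had 26.1, 35.3 and 32.8 CPM in oviduct tissue and 229.6, 161 and 173 in organoids of the oviduct (interaction log2 -1.83, SE 0.54, adjusted p = 0.0465). Epithelial junction genes had a higher difference in OSE in 24 of 45 and Müllerian secretory genes in 16 of 20. *Pax8* had 167, 145 and 184 CPM in oviduct tissue and 161, 159.9 and 180.0 in organoids of the oviduct (interaction log2 5.68, SE 0.74, adjusted p = 0.000592).

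**Figure D5:**
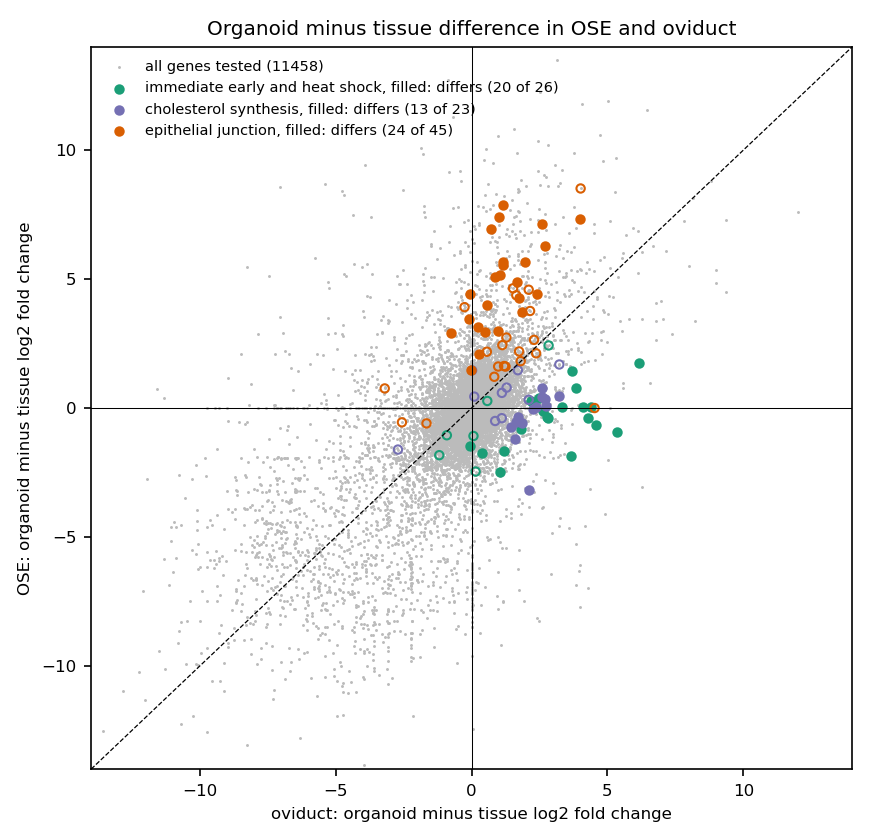
Organoid minus tissue log2 fold change in oviduct (horizontal) and OSE (vertical) from the fit of 11 libraries, with grey points for all 11458 genes, colours for 3 lists and filled symbols for members whose interaction was called. Immediate early (20 of 26) and cholesterol genes (13 of 23) fall below the dashed line of equality and epithelial junction genes (24 of 45) above it.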

How the data were processed

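CEL-Seq2 libraries of OSE tissue (3), OSE organoids (2), oviduct tissue (3) and oviductal organoids (3) were analysed. The authors aligned reads to GRCm38 with BWA and counted uniquely mapped reads in the transcription direction, without collapsing molecular identifiers. The deposited table holds raw counts per gene. Its 16 columns of other groups were not used, and 1 spike-in row was left out. Groups and replicate numbers came from the labels, which pool each group, and from the column names. The p-values measure the spread between these samples.

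Genes passing filterByExpr of edgeR 4.0.16 (R 4.3.3) were scaled by TMM and tested by the two-sided quasi-likelihood test with Benjamini-Hochberg adjustment, for OSE organoids against tissue in 5 libraries and for the interaction in 11. DESeq2 1.42.0 (the authors used 1.18.0), other scalings, no filter, a replicate block and leaving out each library were alternatives. The labels do not say whether same-numbered samples share an origin. Their deviations correlated at -0.04 over 2 pairs, which are too few to decide it. On simulated data with 10232 genes, 10% of 2-fold, 66% of 4-fold and 94% of 8-fold changes were recovered. Changes were planted only in genes above a minimum level. The spread of each gene was capped and set equal in tissue and lines, whereas the real lines differed more than the tissue samples. The rates hold for that setting only.

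The comparison and gene lists were chosen with earlier results of these data known. Genes were named by rule: the 10 largest called changes each way (mean of at least 50 CPM, groups not overlapping), up to 3 called members of a list each way, its highest uncalled member, the 10 genes differing most between the lines each way, and the 6 largest interactions each way. *Pax8*, *Ovgp1*, *Krt8*, *Lgr5*, *Foxj1* and *Mki67* were always named. Coordinates were found for 157 of 162 named genes. Promoters came from RefSeq. Values of some genes that the rule names are not reported here.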

Additional observations from a re-analysis of the deposited data

Results flagged for a closer look

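The organoid minus tissue difference was tested for a difference between OSE and oviduct by an interaction term over 11 libraries (edgeR's quasi-likelihood test), which called 765 genes higher in OSE and 573 lower. The 6 genes named for the largest positive interaction were *Pigr* at 13.59, *Ly6d* at 13.34, *Ildr2* at 12.32, *Foxa2* at 12.001, *Hoxc8* at 11.72 and *Sftpd* at 10.33 on the log2 scale. For the largest negative interaction they were *Gm15698* at -12.48, *Serpine2* at -9.88, *Lect1* at -9.81, *Pak3* at -9.39, *Inhbb* at -8.24 and *Lama1* at -7.15. In *Pigr*, *Ly6d*, *Ildr2* and *Hoxc8* line 1 of the OSE organoids was far above line 2, so that the size of their interaction without line 1 fell to 6.62, 4.75, 7.66 and 6.87. *Foxa2* and *Sftpd* were above OSE tissue in both lines, and without line 1 their interactions were 9.87 and 10.24. No group of OSE samples was large enough for the test of a single outlying sample.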

How the results depend on the processing

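Of 1485 genes higher and 1902 lower in OSE organoids, the number higher was 940 with library totals in place of TMM, while DESeq2 gave 1353 and 1880. Leaving out 1 library gave 689 to 2686 higher and 1079 to 3084 lower. A fit with the replicate block called 202 higher and 333 lower, all of them also called without it, and it rests on 2 shared numbers. Their deviations were not correlated, which does not settle whether same-numbered samples share an origin. The interaction gave 489 to 1125 higher and 336 to 1223 lower without 1 library. Among the named genes 14 values reversed with 1 line left out. Their log2 fold changes without line 1 and without line 2 were *Ovgp1* 5.26 and -2.20, *Tpm1* 1.61 and -0.98, *Smad3* 0.84 and -0.69, *C3* 2.16 and -4.19, *Gstm2* 0.81 and -5.64, *Hoxc8* -4.36 and 1.49, *Sectm1b* -3.77 and 4.66, *Ifitm1* -1.25 and 5.88, *Gpx3* 1.78 and -6.48, *Cryab* 6.34 and -1.80, *Ramp1* 3.60 and -7.55, *Hspb1* 1.38 and -6.23, *Igfbp7* 2.79 and -4.87 and *Ildr2* -3.83 and 1.81. In each of these 14 genes the lines lay on either side of the tissue mean. A fit that leaves 1 tissue sample out has fewer samples. Without 1 line the spread is estimated from the tissue samples alone, so counts of calls without line 1 or line 2 are not comparable with the others. Why the other counts moved was not tested. Of 121 named genes called, 96 kept their call in every alternative that tested them but the replicate block, and 61 in all that tested them. Alternatives in which a gene could not be tested were not counted as a loss. In all, 1433 of 1637 alternative values of named genes kept their side of the threshold without a called reversal, 135 lost the call and 55 gained it. Among the 1433 are 21 values that changed sign but were called in neither fit. With 2 lines, 2-fold changes were mostly not recovered in the simulated data.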

Other observations

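In the fit of 11 libraries, 2227 genes were called for culture in both OSE and oviduct, comparisons that share no samples. Of these, 2080 changed in the same direction and 147 in opposite directions. Both comparisons came from 1 fit with a shared estimate of the spread. Over all 11458 genes, 17.2% were higher and 22.3% lower in OSE, and 14.2% and 20.8% in oviduct. Whether the overlap exceeds what these shares give was not tested. Among 16 granulosa genes 8 had a lower organoid minus tissue difference in OSE than in oviduct, and among 14 steroidogenic genes 3 had (7 by DESeq2), against 5.0% of all genes. No oocyte gene of 17 had one by edgeR's quasi-likelihood test, and 12 had one by DESeq2. Where neither the OSE nor the oviductal organoids had a count, the interaction could not be estimated by edgeR. Its SE was 5744 for *Bmp15*, 8156 for *Nlrp14* and 6343 for *Cyp17a1*. A missing call in the oocyte and steroidogenic lists therefore does not show that the loss was equal in both origins. Mitochondrial ribosomal RNA took 6.99 to 8.57% of the counts in oviduct tissue and 15.7 to 19.4% in oviductal organoids, beside 1.76 to 2.97% in OSE tissue and 12 and 15% in the OSE lines. Among the 398 genes that differed over 4-fold between the OSE lines, 147 of those higher in line 1 and 200 of those higher in line 2 were tested. Of these, 108 were called against OSE tissue with both lines. That is near the share over all genes tested, where 14.5% were called higher and 18.6% lower.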
